A study of Nematostella vectensis with 16 samples.

Results

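These 72 transcripts of the starlet sea anemone, Nematostella vectensis, stood at or below 0.5 times their control level after mercury and close to it after copper. They were chosen from 27273 gene models by 4 conditions on CPM (counts scaled to a library total of 1000000): at least 3 CPM in every control with the largest control at most 2.5 times the smallest, an Hg mean at most 0.5 times the control mean, every Hg library below every control library, and a Cu mean at least 0.85 times the control mean. The control conditions were met by 11996 genes and the control and Hg conditions together by 259, of which the Cu condition kept 72 (27.8%). The choice thus rests on measured values of the Hg, Cu and control libraries, and what it used is given below as description. The number depends on Hg 3: without that library the conditions took 123 genes, among them 67 of the 72.

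RNA was sequenced from whole anemones, a small estuarine cnidarian kept in laboratories, at an age of 2 to 4 months. The 4 metals were given as chlorides for 24 h at 100 µg/L: mercury (HgCl2, group Hg), copper (CuCl2, Cu), cadmium (CdCl2, Cd) and zinc (ZnCl2, Zn), with 3 pools of 5 animals each. The control group held 4 untreated pools. All animals were kept in the dark at 18 °C in artificial seawater of 12.5 ppt, and 1 dose and 1 time were measured for each metal.

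Mercury has no known role in animal cells, and its ions bind tightly to the sulfur of cysteine side chains and of glutathione. Copper is an essential cofactor of redox enzymes, and in excess it also binds such sulfur groups and takes part in reactions that form reactive oxygen species. A lower transcript level can follow from less transcription or from faster decay of the RNA. In whole animals fewer cells of a type and less RNA per cell cannot be told apart. None of the 27273 identifiers, those of the 72 included, matched a RefSeq table of 38762 genes (assembly jaNemVect1.1). The genes are therefore described by their values, without a function.

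Libraries held 5494659 to 8113825 counts, both extremes in the Hg group, so that 3 CPM corresponds to roughly 16 to 24 counts. Of all gene models, 16276 passed the filter on low counts and entered the tests, all 72 among them. Libraries of one group also differed in 198 genes that moved together. These summed to 1468 to 2684 CPM in Hg 3, Cu 3, Cd 1, Zn 3 and controls 1 and 2, against 308 to 670 CPM in the other libraries. None of the 72 belongs to those 198 genes.

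**Figure D1:**
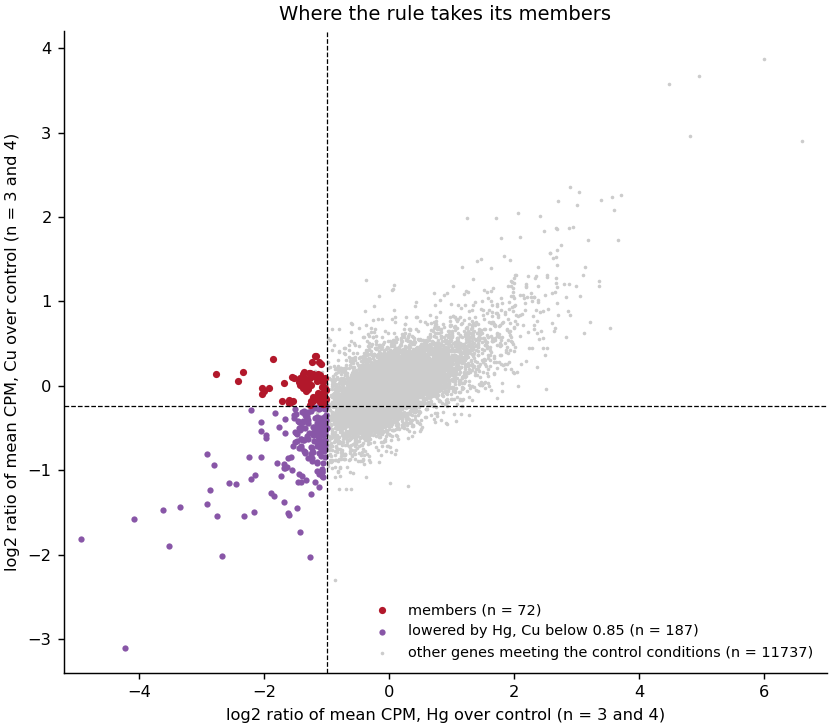
Log2 ratio of mean CPM, Hg over control (x axis) against Cu over control (y axis), for the 11996 genes that met the control conditions; each point is 1 gene and the dashed lines are the Hg bound of 0.5 and the Cu bound of 0.85. The 72 members (red) lie left of the Hg bound and above the Cu bound, with Cu ratios of 0.852 to 1.28. Other genes in that region (grey) did not have every Hg library below every control. The Hg conditions were met with a lower Cu ratio by 187 genes (purple).

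Mercury pools held less of all 72 transcripts, as the conditions require, and most of the members were only moderately lowered. The ratio of mean CPM, Hg over control, had a median of 0.42 and ran from 0.146 to 0.497. It was at most 0.25 in 6 members, over 0.25 to 0.4 in 20 and over 0.4 to 0.5 in 46. The median ratio over the members was 0.428 in Hg 1, 0.371 in Hg 2 and 0.413 in Hg 3. This likeness of the Hg pools is partly set by the conditions. Of the 72 members, 54 lay under 0.5 times the control mean in Hg 1, 65 in Hg 2 and 59 in Hg 3. Hg 2 was the lowest of the 3 pools for 35 members. In the edgeR fit 71 members were called lower in Hg than in control (adjusted p under 0.05), beside 11.7% of all genes tested, and nothing is read from that count because the choice used this contrast.

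The member not called, v1g207295, was singled out after its values were seen. It had 7.28, 11.1 and 17.5 CPM in Hg 1 to 3, against 35.1, 24.5, 18 and 19.6 CPM in controls 1 to 4. The highest Hg pool almost reached the lowest control, and among the other metals Cd 1 alone reached 45.1 CPM. Just inside the Hg bound the last member had a ratio of 0.497, and just outside it a gene that met every other condition had 0.501. At the Cu bound the nearest ratios were 0.851835 inside and 0.849968 outside. For the lowest control level they were 3.01 CPM inside and 2.9 CPM outside. For the spread of the controls they were 2.43 inside and 2.53 outside, and for the highest Hg library over the lowest control 0.982 inside and 1.02 outside.

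Summed over the 72 members, Hg pools held 2414, 2143 and 2297 CPM in Hg 1 to 3. The Cu pools held 5201, 6568 and 5089 CPM, the Cd pools 5123, 5388 and 6237 CPM, and the Zn pools 5149, 6976 and 5605 CPM. The controls held 4468, 5608, 5856 and 5992 CPM. The highest Hg sum lay well under the lowest sum of any other library, which was control 1. That Hg sums lie under control sums follows from the conditions. The Cu, Cd and Zn sums overlapped the controls. As a mean ± SD the sums were 2285 ± 136 CPM in Hg, 5619 ± 823 CPM in Cu, 5583 ± 582 CPM in Cd and 5910 ± 951 CPM in Zn (n = 3 each), and 5481 ± 694 CPM in controls (n = 4).

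**Figure D2:**
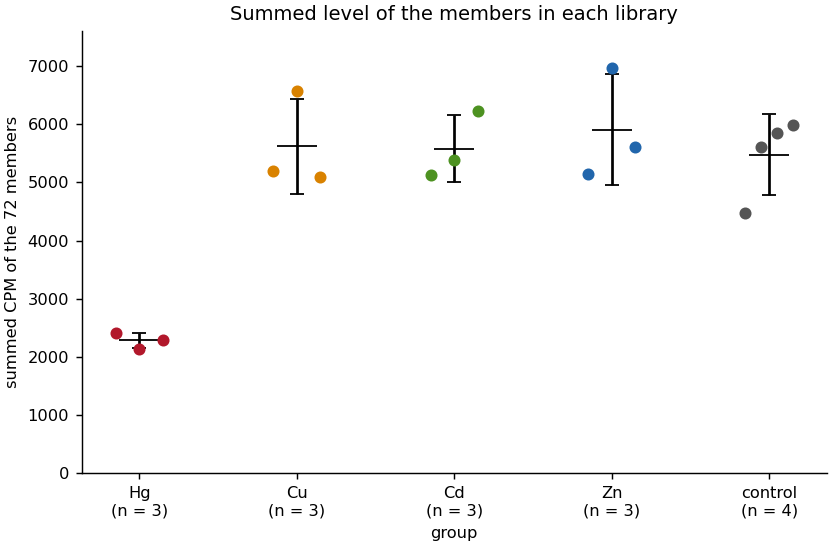
Summed CPM of the 72 members in each library (points), with the mean (bar) and SD (whiskers) of each group. The 3 Hg libraries sit between 2143 and 2414 CPM, below the other 13 libraries, which lie between 4468 and 6976 CPM. The conditions fix that Hg sums lie below control sums.

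Median Hg ratios were alike over the range of count levels. The Hg bound caps the ratio of every member, so this likeness is partly set by the choice and nothing is read from it. Control means ran from 3.28 to 776 CPM with a median of 21.6 CPM. CPM is not divided by transcript length, so it orders the genes by counts rather than by transcripts. The 23 members under 10 CPM in controls had a median Hg ratio of 0.424, the 35 members from 10 to 100 CPM had 0.416, and the 14 members at 100 CPM and over had 0.425. Those 14 members held 78% of the summed control CPM of all 72.

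In copper pools the members stood near the control level. The conditions fix only that no Cu mean lies under 0.85 times the control mean, and they set no upper bound. The Cu ratio had a median of 1.01, with 39 members above the control mean and 33 at or below it, and 66 of 72 lay within 15% of it. No member was called in Cu against control by edgeR (4.2% of all genes were), none by DESeq2, and none reached an unadjusted p under 0.05, against 16.4% of all genes. The choice used this contrast, and nothing is read from these counts. In 1 member, v1g127267, every Cu library lay below every control (5.77% of all genes), and in 1 member, v1g82577, every Cu library lay above (7.1%). Both are named after their values were seen, as are the members in the same kind of count below. Median ratios differed more among the Cu pools than among the Hg pools. Every Hg library had to lie below every control, so this difference is partly set by the choice. The median ratio to the control mean was 0.971 in Cu 1, 1.19 in Cu 2 and 0.876 in Cu 3, and Cu 2 was the highest Cu pool for 50 members.

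**Figure D3:**
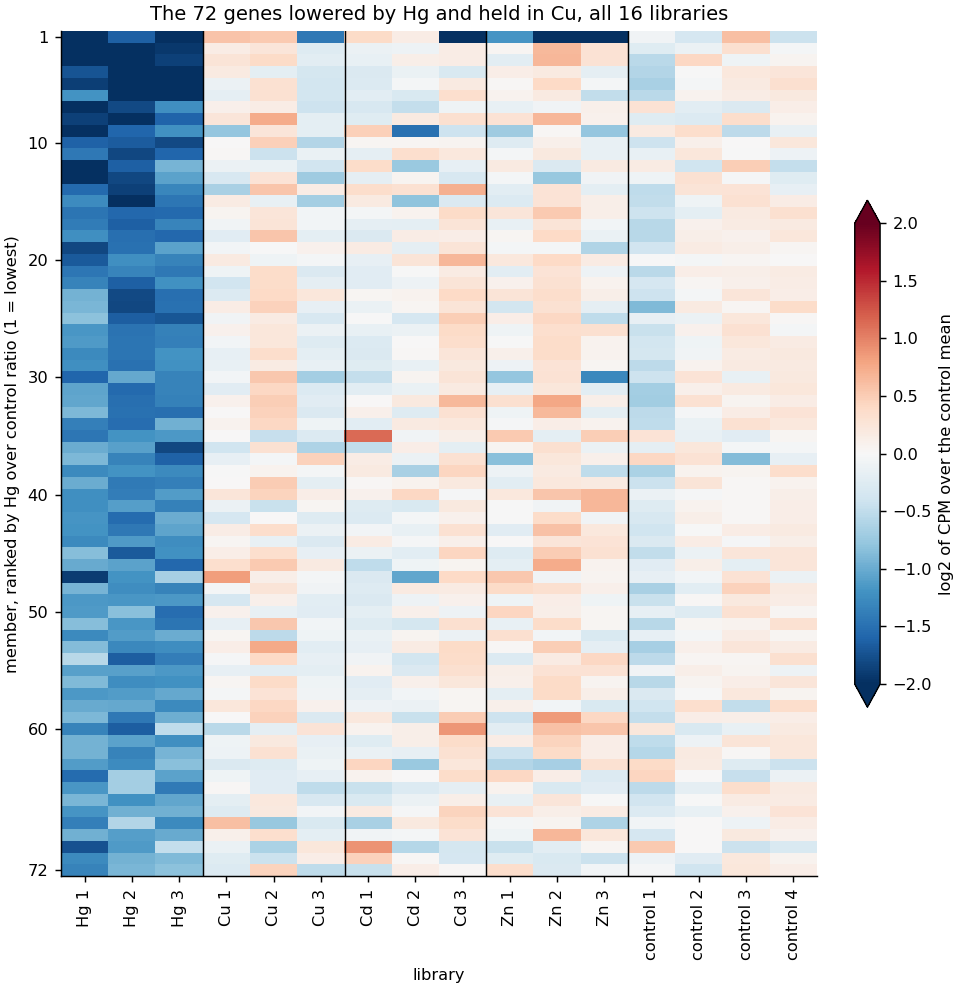
Log2 of CPM over the control mean for the 72 members (rows, ranked by Hg ratio) in each of the 16 libraries (columns), blue for lower and red for higher, with colours saturated at 2 log2 units. The 3 Hg columns are blue throughout, while Cu 2, Cd 3 and Zn 2 are mostly pale red and control 1 mostly pale blue.

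Cadmium and zinc had no part in the choice of members, although the controls they are compared with did. Cadmium pools held the members close to the control level. The Cd ratio had a median of 1.03 and ran from 0.816 to 1.41, and 61 of 72 members (84.7%) lay within 15% of the control mean. The same was true of 75.9% of the 11996 genes that met the control conditions, whose median Cd ratio was 1.01. No member was called in Cd against control by edgeR, beside 0.0184% of all genes tested, none of the 54 to which DESeq2 gave an adjusted p, and none of the 72 had an unadjusted p under 0.05, against 7.03% of all genes. The lowest edgeR adjusted p of a member was 0.76. In no member did every Cd library lie below every control (1.7% of all genes), and in 1, v1g92831, every Cd library lay above (3.97%). It had 5.46, 5.27 and 6.97 CPM in Cd 1 to 3, against 3.01, 5.12, 5.18 and 3.81 CPM in controls 1 to 4. The interval of 2 standard errors on each side of the log2 fold change lay above -1, a fall to 0.5 times control, for 70 of the 72 members.

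Zinc pools tended to hold slightly more of these transcripts than the controls, a tendency that rests on single libraries. The Zn ratio had a median of 1.08, and 52 members (72.2%) lay above the control mean. Over the 11996 genes that met the control conditions the median was 0.98, with 43.2% above the control mean. The median over the members was 0.987 without Zn 2 and 1.02 without control 1, so its direction changes with 1 pool. Of the 72 members, 45 (62.5%) lay within 15% of the control mean, 21 above that range and 6 below it, while 76.8% of the 11996 genes lay within it. No member was called in Zn against control by edgeR, beside 0.00614% of all genes tested. DESeq2 gave an adjusted p to only 35 of the 72 and called none of these. At an unadjusted p under 0.05 there were 6 members (8.33%, against 7.03% of all genes), 5 of them higher and 1 lower. Every Zn library lay below every control in 2 members, v1g217315 and v1g215658 (3.08% of all genes), and above in 3, v1g82577, v1g127267 and v1g244381 (2.69%). v1g127267 had 44.6, 50.4 and 50.5 CPM in Zn 1 to 3 and 36.7, 35.6 and 36 CPM in Cu 1 to 3, against 39.2, 44.6, 42.7 and 38.6 CPM in controls 1 to 4. Its Cu pools thus stood under the controls and its Zn pools over them, by a narrow margin. The lowest edgeR adjusted p was 0.567, and the interval of 2 standard errors lay above -1 for 68 of 72 members.

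Cadmium and zinc were also compared with each other, where no library of the choice enters. No member was called by edgeR, as no gene was (0%), and none by DESeq2, with 2 members at an unadjusted p under 0.05 (2.78%, against 3.68% of all genes). The median log2 fold change of Cd over Zn was -0.15 over the members and 0.01 over all genes tested, with 53 members lower in Cd and 19 higher. Zn 2 had the highest summed CPM of the members of all libraries, 6976, and no such median without Zn 2 is given here. The members also varied in part together, so 53 and 19 do not count independent observations. In no member did every Cd library lie below every Zn library (2.99% of all genes), and in 1 member, v1g92831, every Cd library lay above every Zn library (6.78%).

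The direct contrasts with mercury set its libraries, which the choice used, against Cd and Zn libraries, which it did not. The median log2 fold change over the members was -1.29 for Hg over Cd and -1.41 for Hg over Zn, where the medians over all genes tested were -0.05 in both. In edgeR 68 members were called lower in Hg than in Cd and 66 lower in Hg than in Zn, and 0 were called higher in either. Over all genes tested 9.97% were lower in Hg than in Cd and 11.3% lower in Hg than in Zn. Every Hg library lay below every Cd library in 67 members (19.1% of all genes) and below every Zn library in 69 members (18.5%). Since low Hg values chose the members, these counts are partly set by the choice. Against copper, which the choice also used, 65 members were called lower in Hg (4.37% of all genes) and 69 did not overlap (12.8%). In 65 members the Hg libraries lay below all 13 other libraries (5.49% of all genes).

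Copper against the other metals gave no member by edgeR, either against Cd (2.54% of all genes) or against Zn (3.61%), and none by DESeq2. Unadjusted p-values under 0.05 numbered 1 member against Cd (1.39%, against 11.7% of all genes) and 3 against Zn (4.17%, against 15.3%). The median log2 fold change was 0.02 for Cu over Cd and -0.13 for Cu over Zn. The Cu bound removed genes with a low Cu mean, so these counts and medians are partly set by the choice.

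The member with the lowest Hg ratio, v1g217315, differed from the rest in Zn. It had 0, 3.36 and 1.23 CPM in Hg 1 to 3, where the 0 in Hg 1 allows up to 0.546 CPM by counting error. Its levels were 15.6, 15.1 and 3.89 CPM in Cu 1 to 3, 13.6, 11.6 and 2.1 CPM in Cd 1 to 3, and 4.64, 1.01 and 1.06 CPM in Zn 1 to 3. The controls had 9.94, 8.26, 15.9 and 7.79 CPM. All Zn pools, Cu 3 and Cd 3 thus lay below every control, and the Zn pools overlapped the Hg pools. The log2 fold change of Zn over control was -2.27 ± 0.85 (SE), which did not pass (edgeR adjusted p = 0.672). That of Hg over Zn was -0.44 ± 1.08 (SE). It was the one member with a Zn mean under 0.5 times control, at a ratio of 0.213, where the next lowest had 0.735.

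The member with the next lowest Hg ratio, added after its values were seen, was v1g228028. It was steadier and lay well above the low count range. It had 28, 20.8 and 42.8 CPM in Hg 1 to 3 and 181, 192 and 137 CPM in Cu 1 to 3. The Cd pools had 150, 152 and 180 CPM, the Zn pools 167, 256 and 200 CPM, and the controls 138, 151, 205 and 159 CPM. Its Hg ratio was 0.187, and all 3 Hg pools lay far below the other 13 libraries, which overlapped one another.

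The member with the highest control CPM was v1g246240. It had 331, 273 and 261 CPM in Hg 1 to 3 and 667, 1144 and 675 CPM in Cu 1 to 3. The Cd pools had 635, 858 and 851 CPM, the Zn pools 794, 1020 and 708 CPM, and the controls 528, 838, 825 and 913 CPM. The Hg pools lay below every other library and the remaining groups overlapped, with Cu 2 the highest library. Its mean ± SD was 289 ± 37.2 CPM in Hg (n = 3) and 776 ± 170 CPM in controls (n = 4), a ratio of 0.372.

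The pair with the highest Cu ratios, v1g221587 and v1g233339, reached 1.28 times control in both cases without a call. v1g221587 had 4.37, 7.16 and 10.4 CPM in Hg 1 to 3 and 29.2, 17.7 and 15.8 CPM in Cu 1 to 3. Its Cd pools had 13.3, 7.99 and 21.6 CPM, its Zn pools 23.7, 15.6 and 17 CPM, and its controls 14.7, 15.7, 20 and 15 CPM. Among the Cu pools Cu 1 alone stood above the control range, and Cd 2 lay within the Hg range. v1g233339 had 1.82, 1.75 and 1.23 CPM in Hg 1 to 3 and 4.61, 5.26 and 4.17 CPM in Cu 1 to 3. Its Cd pools had 2.57, 3.47 and 3.81 CPM, its Zn pools 3.2, 6.16 and 3.85 CPM, and its controls 3.14, 3.97, 3.22 and 4.35 CPM. Its Hg pools held only 10, 12 and 10 counts and its controls 24, 24, 18 and 24 counts, so counting error is a large part of its spread.

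Of the 72 members, 5 carry identifiers that follow one another in number, and these runs were noticed after their values were seen. The first run is v1g232013, v1g232014 and v1g232015. v1g232014 had 83.2, 69.1 and 83.6 CPM in Hg 1 to 3, 175, 219 and 175 CPM in Cu 1 to 3, 164, 176 and 222 CPM in Cd 1 to 3 and 182, 236 and 199 CPM in Zn 1 to 3. Its controls had 135, 204, 219 and 219 CPM. Control 1 was the lowest control, and the Hg pools lay below it. The Hg ratios in this run were 0.399, 0.405 and 0.482 in order of number, and the Zn ratios 1.15, 1.06 and 1.03. The second run is v1g238391 and v1g238392, with Hg means of 185 ± 24.4 and 206 ± 9.84 CPM (SD, n = 3) and control means of 431 ± 73.4 and 419 ± 63.3 CPM (SD, n = 4). The levels of this pair were close in every group, with Zn means of 505 ± 138 and 515 ± 138 CPM (SD, n = 3). Whether such numbers mean neighbouring positions or similar sequences is not stated in the sources, and reads that a pair of near-identical copies shares could be split between them. Such pairs of numbers occurred 3 times among the 72 members and 1 time among 187 other genes lowered by Hg. The first run alone gives more than 1 of the 3 pairs. No rate over all genes is given here, so nothing is read from these counts.

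**Figure D4:**
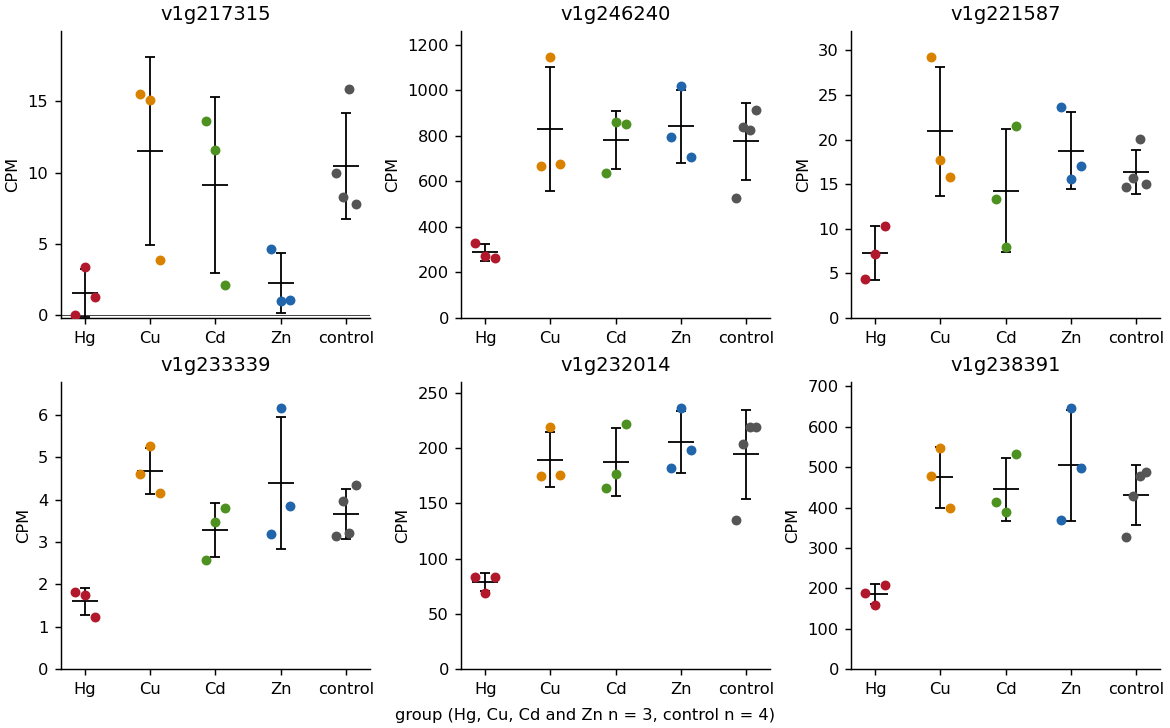
CPM in each library (points) with the group mean (bar) and SD (whiskers) for v1g217315, v1g246240, v1g221587, v1g233339, v1g232014 and v1g238391, each panel on its own axis. In the last pair of panels and in that of v1g246240 the Hg libraries stand apart from all others, whereas v1g217315 is also low in Zn, with 1.01 to 4.64 CPM.

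The members varied in part together from pool to pool within the groups. After removal of the group means, log2 levels (offset 0.5 CPM) of a pair of members had a median Pearson correlation of 0.306 over the 16 libraries, and 71.8% of the 2556 pairs were positive. This is a description over libraries whose CPM share a total, and no value for other genes stands beside it. Control 1 was the lowest control for 53 members (73.6%), and for 50.7% of the 11996 genes that met the control conditions. Cd 3 was the highest Cd pool for 53 members and Zn 2 the highest Zn pool for 49. Control 1 also had the lowest TMM factor (a scaling for library composition) of all libraries, 0.905. With TMM-scaled CPM the conditions took 76 genes, 67 of the 72 among them.

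The ratios were also read within the library sets that the 198 pool-variable genes mark, a reading chosen after the data were seen. Hg 3 against controls 1 and 2 gave a median Hg ratio of 0.442, with 50 of 72 members at most 0.5. Hg 1 and 2 against controls 3 and 4 gave 0.376, with 67 of 72 at most 0.5. All 72 lay below the control mean in both sets, which the conditions fix in advance. The median Cu ratio was 0.981 in the first set and 0.997 in the second, and 14 and 7 members then lay under 0.85. For Cd the medians were 1.02 and 0.967, and for Zn 1.14 and 1.01.

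The 187 other genes lowered by Hg met the same control and Hg conditions but had a Cu ratio under 0.85, and they make up 72.2% of the 259. The median Hg ratio was 0.42 in the members and 0.41 in these genes, and the lowest was 0.146 in the members and 0.0327 in these genes. Both sets passed the same Hg bound, so the closeness of the medians is partly set by the choice. The median Cu ratio was 1.01 in the members and 0.64 in these genes, a difference that the choice makes. In Cd and Zn, which had no part in it, the median ratios were 1.03 and 1.08 in the members and 0.888 and 0.913 in the other 187 genes. Within 15% of the control mean in Cd were 61 of 72 members, against 80 of the 187 genes (42.8%). In Zn these numbers were 45 of 72 and 88 of the 187 (47.1%). Controls 3 and 4 were the highest controls in both sets, with medians of 1.09 and 1.11 times the control mean in the members and 1.15 and 1.11 times in the 187 genes. Since all ratios share the same 4 controls, these values are set side by side and the difference was not tested.

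**Figure D5:**
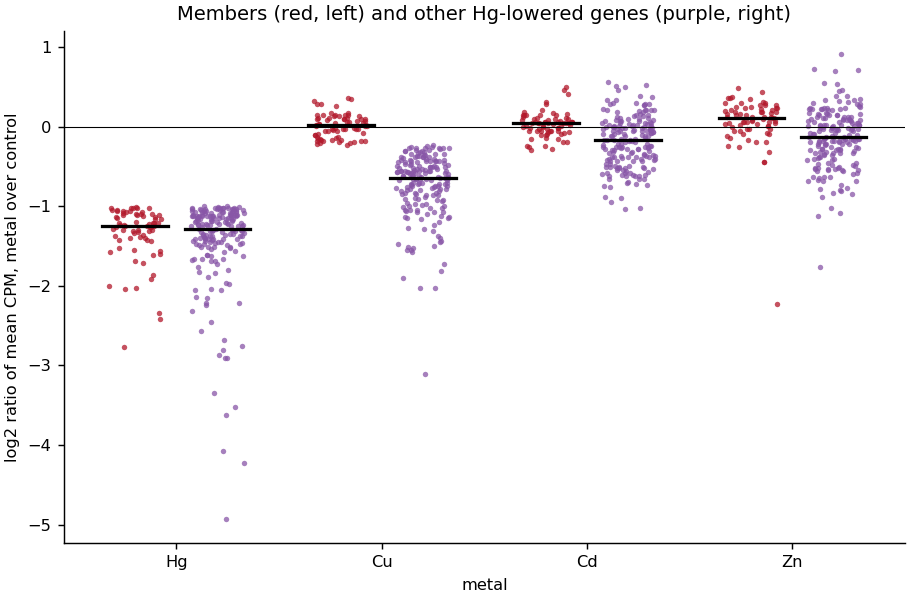
Log2 ratio of mean CPM, metal over control, for the 72 members (red, left of each pair) and the 187 other genes lowered by Hg (purple, right), with black bars at the medians; each point is 1 gene. The Hg medians are alike at 0.42 and 0.41, which the shared Hg bound partly sets. The Cu columns are divided by the Cu bound itself, and 1 member lies apart in Zn at a ratio of 0.213.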

How the data were processed

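Raw counts per gene model were deposited by the authors in 4 tables, 1 per metal, each with the same 4 control columns, which were used once. STAR, Partek and DESeq are named without version or role, per the submitters' processing notes. Tri-reagent was used for the RNA and the TruSeq mRNA kit for the libraries, per the labels' protocols. Strand, genome build and annotation: not given in the sources used here. Pools of one group are separate sets of animals, and the p-values reflect how much such pools differ.

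The members and comparisons were chosen with earlier results of these data known. CPM for the choice uses column totals. Tests used edgeR 4.0.16 in R 4.3.3 on all 16 libraries, with filterByExpr, TMM factors, 1 term per group, robust quasi-likelihood and Benjamini-Hochberg adjustment over 16276 genes at 0.05. DESeq2 1.42.0, no filter, other size factors, fits of only the groups compared, a replicate block and leaving out each library were alternatives. The fit was checked on simulated counts. Depth was 5494659 to 8113825 counts, and floors (3 counts) cover counting error only. Named members were, by rule, those with the lowest Hg ratio, the highest control mean and the 2 highest Cu ratios.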

Additional observations from a re-analysis of the deposited data

Results flagged for a closer look

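For 3 of the 4 members named by rule, the difference between mercury and a metal that had no part in the choice passed the edgeR test of the direct contrast (adjusted p under 0.05). The Hg values chose these members, so the size and the outcome are partly set by the choice. Of all 72 members, 68 were called lower in Hg than in Cd and 66 lower than in Zn. Over all genes tested these shares were 9.97% and 11.3%. Passing therefore does not set these members apart from the rest. v1g246240 had a log2 fold change of -1.43 for Hg over Cd and -1.58 for Hg over Zn. For v1g233339 the values were -1.04 and -1.51. v1g221587 had -1.34 for Hg over Zn, and its Hg over Cd contrast did not pass. v1g217315 passed in neither.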

How the results depend on the processing

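The number of members follows the bounds. It was 26 with an Hg bound of 0.4 and 197 with 0.6, 109 with every control at 1 CPM or more and 42 at 10 CPM or more. It was 157 in the 10 libraries low in the pool-variable genes, a set of libraries defined from the data afterwards, with 60 of the 72 among them. Leaving out 1 library gave 65 to 123, the highest without Hg 3. Other Cu bounds, control spreads and scalings gave 50 to 106.

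Members called lower in Hg numbered 63 to 69 against control, 58 to 62 against Cu, 61 to 67 against Cd and 63 to 66 against Zn when 1 library was left out, and 63 to 71, 59 to 66, 61 to 69 and 64 to 67 under the other settings. Counts of 0 in Cu, Cd and Zn against control, Cu against Cd and Cd against Zn stayed 0 under every alternative run, where DESeq2 gave an adjusted p to 54 of the 72 members in Cd and 35 in Zn against control. Cu against Zn gave 1 in a fit of only those groups and 0 otherwise. The median Cd ratio ran from 0.937 to 1.06 and the median Zn ratio from 0.987 to 1.12 when 1 library was left out. With the replicate number as a block 68 members were called in Hg against control, 64 against Cu, 65 against Cd and 65 against Zn. Libraries share only a number: deviations of 30 same-numbered pairs correlated from -0.27 to 0.39, and the best match had the same number in 17 of 60 cases. At 3 CPM counting error limits single members more than their sums.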

Other observations

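The 72 members on the falling side stand beside 120 genes that met the mirror image of the conditions, an Hg mean at least 2 times the control mean with every Hg library above every control and a Cu mean at most 1.15 times control.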
